A study of Mus musculus with 10 samples.

Results

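The genes described here act in mitosis and chromosome segregation, and they were taken by symbol from a written list of 56 genes. Of these, 53 had a value among the 19505 genes measured, and Ccnb1, Ccnf and Foxm1 were not analysed here. RNA came from small intestine organoids of BALB/c mice, cultures of gut epithelium that organise themselves, kept in IntestiCult growth medium and Matrigel. In the pegtarazimod group, 5 cultures received 20 ng/ml recombinant mouse TNF, an inflammatory cytokine, and 5 mg/ml of the pegylated peptide pegtarazimod. In the vehicle group, 5 cultures received the same TNF with 2.625 mM PEG. The labels do not say if both treatments held equal amounts of PEG. Both groups were treated for 48 h, and cultures without TNF were not analysed here. Each culture gave 1 single-colour array, and expression is given as log2 of the normalised signal of 1 probe set per gene. The design text calls the 5 samples of a group biological replicates without saying what differed between them, so p-values measure only the spread between these samples.

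Entry into mitosis is driven by Cdk1 bound to A- and B-type cyclins, with Plk1 and the Aurora kinases acting on centrosomes, spindle and kinetochores. Condensins and topoisomerase II shape the chromosomes, kinetochores attach them to microtubules, and the spindle checkpoint holds the anaphase-promoting complex in check until attachment is complete. In the intestinal epithelium these genes are expressed mainly by dividing crypt cells and are low in the differentiated cells that leave the crypt. Many are transcribed together late in the cell cycle through a cell cycle homology region (CHR) read by the MuvB complex, often next to CCAAT boxes bound by NF-Y, and MuvB works with B-Myb and Foxm1 when it activates and with p107 or p130 when it represses.

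Of the 53 members, 8 fell with pegtarazimod at an adjusted p below 0.05 in limma (15.1%; over all genes tested 2.39% fell), and 0 rose (over all genes 2.5%). At an unadjusted limma p below 0.05, 35 were lower, against 9.65% of all genes, and 0 were higher, against 9.31% of all genes. The difference, pegtarazimod minus vehicle, was below 0 for 52 members and above 0 for Fzr1, and 49.3% of all genes were below 0. Its median over the members was -0.37 on the log2 scale, with a range of -0.87 to 0.01, while the median over all genes was 0.00. For 12 members every pegtarazimod array lay below every vehicle array, which held for 3.36% of all genes. In RNA from whole cultures, fewer cells of a type and less RNA per cell cannot be told apart. All 53 members lay above the lower quartile of all genes on every array, and 51 lay above the median.

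**Figure D1:**
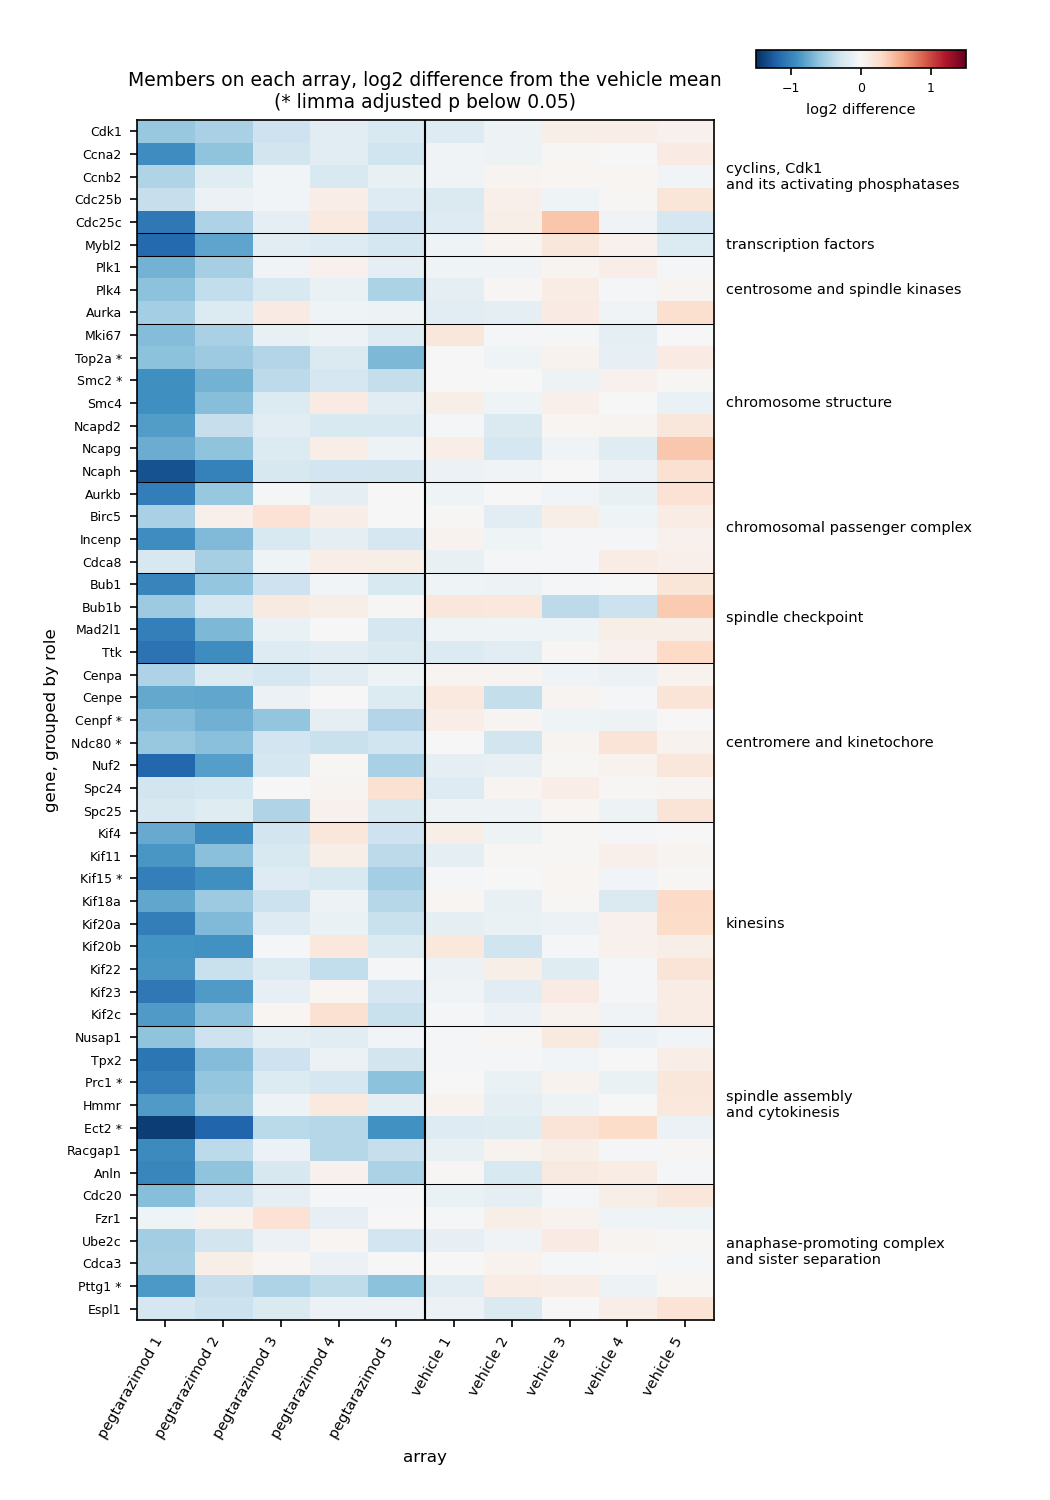
Heat map of the 53 members (rows, grouped by role) on the 5 pegtarazimod and the 5 vehicle arrays (columns), coloured by the log2 difference of each value from that gene's mean over the vehicle arrays. Blue cells, lower than the vehicle mean, are deepest on pegtarazimod arrays 1 and 2, and asterisks mark the 8 members with an adjusted p below 0.05.

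The arrays of the pegtarazimod group differed among themselves. The mean over the 53 members was 7.31, 7.56, 7.91, 8.01 and 7.84 on pegtarazimod arrays 1 to 5, against 8.04, 8.02, 8.11, 8.07 and 8.17 on vehicle arrays 1 to 5. The groups did not overlap, with pegtarazimod arrays 1 and 2 lowest and array 4 just under the lowest vehicle array. On pegtarazimod array 1 all 53 members were below their lowest vehicle value, and on arrays 2 to 5 it was 48, 27, 21 and 36 members. Over all genes the same share was 26.6% on array 1 and between 20.2% and 24.2% on the others. The lowest of the 10 arrays was pegtarazimod array 1 for 43 members and array 2 for 7. The median SD of a member was 0.314 within pegtarazimod and 0.114 within vehicle, while over all genes it was 0.183 within pegtarazimod and 0.155 within vehicle. The SD was larger within pegtarazimod for 94.3% of members and for 61.9% of all genes. Over all genes, replicates 1 and 2 differed from replicates 3 to 5 in both groups, and the labels name no batch. At a limma adjusted p below 0.05, 548 genes were lower and 454 higher in replicates 1 and 2 within pegtarazimod. Within vehicle 59 were lower and 67 higher. These counts do not test whether the groups differed in this, and the test of that difference, given below, called 5 of 19505 genes and 0 members. In a fit with these subsets as a block (the subset block), 25 members fell, against 4.83% of all genes. The block was chosen from earlier results of the same arrays, so its calls are no independent support. It also takes the subsets to differ equally in both groups. Over the members, replicates 1 and 2 minus 3 to 5 had a median of -0.48 within pegtarazimod and -0.10 within vehicle. The adjusted p of the block fit is given below for members that passed in it and not without it. Mki67, Plk1 and Aurkb did not pass in it (limma adjusted p = 0.116, 0.134 and 0.133).

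Promoters of the members are shown because they carry the elements by which this group of genes is known. RefSeq promoters (GRCm38.p6), each with 250 bases before and 50 after a gene's start, were found for 47 listed genes (49 promoters), and 9 had no entry. The elements searched, on both strands, were the CHR as TTTGAA, the CCAAT box as CCAAT, and the E2F element as TTCCCGC or TTGGCGC. The lines below run 5′ to 3′ along the gene's strand, with 170 bases before and 30 after the start, and the capitals mark any of the elements in either orientation. They show 5 members that fell and carry a CHR (Top2a, Cenpf, Kif15, Prc1 and the second listed start of Ect2), then Cdk1, then Pttg1, which fell and holds none of the elements, and Fzr1, which has a CCAAT box only.
Top2a: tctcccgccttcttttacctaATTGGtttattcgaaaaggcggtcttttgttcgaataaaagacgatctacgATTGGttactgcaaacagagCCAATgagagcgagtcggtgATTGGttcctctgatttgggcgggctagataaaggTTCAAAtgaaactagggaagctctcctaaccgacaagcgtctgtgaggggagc
Cenpf: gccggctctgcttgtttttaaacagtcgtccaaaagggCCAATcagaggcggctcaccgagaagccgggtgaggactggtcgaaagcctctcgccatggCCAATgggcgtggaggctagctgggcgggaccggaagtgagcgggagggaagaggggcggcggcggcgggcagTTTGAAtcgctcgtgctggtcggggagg
Kif15: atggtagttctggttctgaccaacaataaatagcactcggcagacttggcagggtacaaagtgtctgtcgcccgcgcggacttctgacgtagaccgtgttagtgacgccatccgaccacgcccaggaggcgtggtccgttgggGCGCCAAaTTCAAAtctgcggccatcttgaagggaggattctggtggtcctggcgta
Prc1: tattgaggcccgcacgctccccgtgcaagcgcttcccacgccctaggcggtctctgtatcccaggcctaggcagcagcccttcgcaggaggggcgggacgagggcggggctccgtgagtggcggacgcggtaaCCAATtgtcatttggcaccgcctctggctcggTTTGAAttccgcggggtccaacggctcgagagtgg
Ect2: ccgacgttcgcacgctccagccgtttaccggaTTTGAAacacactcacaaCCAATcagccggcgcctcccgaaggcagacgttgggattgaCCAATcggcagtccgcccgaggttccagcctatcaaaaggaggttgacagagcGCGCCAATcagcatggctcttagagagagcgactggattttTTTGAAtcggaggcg
Cdk1: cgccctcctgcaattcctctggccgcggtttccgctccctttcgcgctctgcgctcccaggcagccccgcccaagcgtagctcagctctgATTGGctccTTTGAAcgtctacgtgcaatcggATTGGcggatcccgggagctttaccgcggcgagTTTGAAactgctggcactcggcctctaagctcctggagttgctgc
Pttg1: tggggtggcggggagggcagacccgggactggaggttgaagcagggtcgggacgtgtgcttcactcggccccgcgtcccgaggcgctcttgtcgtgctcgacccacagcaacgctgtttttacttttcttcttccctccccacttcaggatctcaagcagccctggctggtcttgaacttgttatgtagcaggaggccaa
Fzr1: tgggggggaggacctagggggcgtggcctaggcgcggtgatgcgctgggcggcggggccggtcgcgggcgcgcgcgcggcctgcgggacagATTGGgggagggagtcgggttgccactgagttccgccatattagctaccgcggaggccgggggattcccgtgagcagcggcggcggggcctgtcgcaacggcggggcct
The windows are chr11:99024160-99024359 (minus strand) for Top2a, chr1:189688057-189688256 (minus strand) for Cenpf, chr9:122950911-122951110 (plus strand) for Kif15, chr7:80294281-80294480 (plus strand) for Prc1. The other windows are chr3:27153825-27154024 (minus strand) for Ect2, chr10:69352883-69353082 (minus strand) for Cdk1, chr11:43425952-43426151 (minus strand) for Pttg1, chr10:81378341-81378540 (minus strand) for Fzr1. In Kif15 the E2F match GCGCCAA lies next to the CHR TTCAAA, and in Ect2 an E2F match overlaps a CCAAT box.

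A CHR was present in 35 of 49 member promoters (71.4%, 95% Wilson interval 57.6 to 82.2%), against 17.9% of all 32851 promoters in the table and 15.3% of those of measured genes. A CCAAT box was present in 71.4% of member promoters and 37.4% of all promoters. The E2F element was present in 22.4% of member promoters and 6.81% of all promoters. Both a CHR and a CCAAT box were found in 61.2% of member promoters and 6.95% of all promoters, and in 1 member promoter the matches overlapped. The CHR matches of members lay close to the start: within 50 bases of it on either side, 65.3% of member promoters had one, against 4.94% of all promoters. In the printed windows the first base of the CHR lies at -23 in Top2a, 2 in Cenpf, -19 in Kif15 and -5 in Prc1, where 0 is the first base of the gene. Cdk1 has a CHR at -71 and another at -15, and the printed Ect2 window has them at -138 and 15. The list was written from genes known for mitotic roles, so an excess of these elements describes the members and says nothing about pegtarazimod. The 32 measured members with a CHR in the window had a median difference of -0.36 and 7 fell, while the 13 without had a median of -0.41 and 1 fell, and this contrast was not tested.

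**Figure D2:**
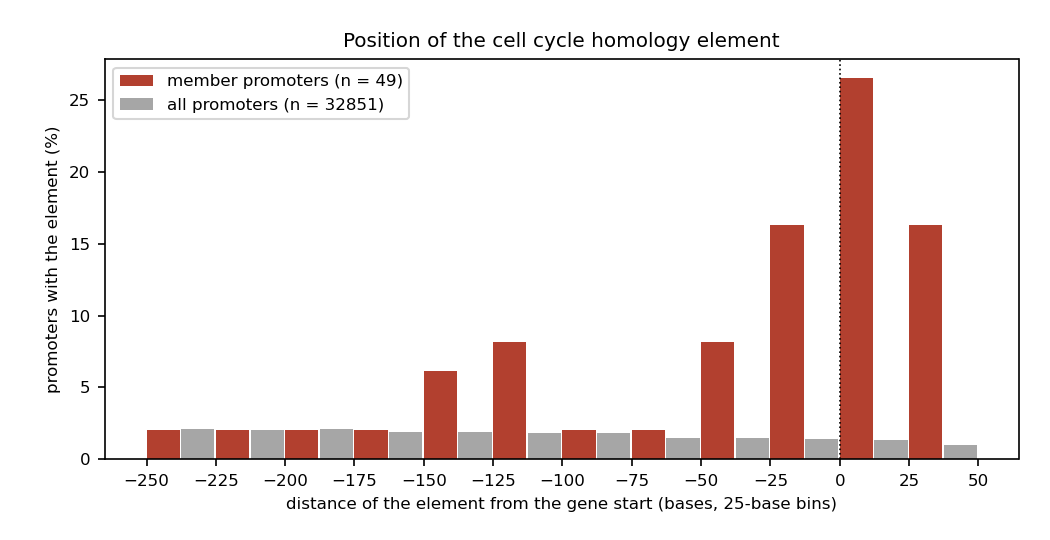
Share of promoters (vertical axis, percent) with a cell cycle homology element that begins in each 25-base bin of distance from the gene start (horizontal axis, bases), for 49 member promoters in red and 32851 promoters in grey. The member bars are highest from the start to 25 bases after it, at 26.5% against 1.31% of all promoters.

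Mybl2 is the gene of B-Myb, the partner of MuvB in activating mitotic genes, and was the measured transcription factor of the list. It was at 6.56, 6.94, 7.56, 7.54 and 7.47 on pegtarazimod arrays 1 to 5 and at 7.66, 7.77, 7.89, 7.79 and 7.53 on vehicle arrays 1 to 5 (log2). Pegtarazimod arrays 1 and 2 were far below the rest and the groups overlapped at vehicle array 5. The difference was -0.51 ± 0.17 (SE, n = 5 arrays per group), with a limma adjusted p of 0.113 (0.0314 with the subset block).

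Among the cyclins, Cdk1 and its activating phosphatases, 0 of 5 measured members passed the limma adjusted threshold (3 were lower at an unadjusted p below 0.05), and the median difference was -0.35. Cdk1, the kinase that drives entry into mitosis, was at 7.56, 7.65, 7.82, 7.95 and 7.90 with pegtarazimod and at 7.94, 8.06, 8.22, 8.23 and 8.20 with vehicle. Only pegtarazimod array 4 reached the vehicle values, at the level of vehicle array 1. The difference was -0.35 ± 0.10 (SE), at an adjusted p of 0.0655 (0.011 with the subset block). Ccna2, which encodes cyclin A2, did not overlap between the groups, with 8.74 to 9.52 on the pegtarazimod arrays and 9.60 to 9.79 on the vehicle arrays. Its difference of -0.45 had an adjusted p of 0.0664 (0.0119 with the subset block). Ccnb2 (cyclin B2), Cdc25b and Cdc25c (phosphatases that activate Cdk1) had differences of -0.20, -0.11 and -0.37.

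Of the centrosome and spindle kinases 0 of 3 passed (1 at an unadjusted p below 0.05), with a median of -0.27. Plk1, a kinase of centrosome maturation and spindle assembly, was at 9.04, 9.26, 9.70, 9.83 and 9.61 with pegtarazimod and at 9.69, 9.70, 9.80, 9.85 and 9.74 with vehicle. Pegtarazimod arrays 1 and 2 were low and arrays 3 and 4 were within the vehicle range. Its difference of -0.27 ± 0.13 (SE) had an adjusted p of 0.307. Plk4, which starts centriole duplication, had a difference of -0.36 at an adjusted p of 0.0674 (0.0317 with the subset block), and Aurka, a kinase of the spindle poles, one of -0.15.

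Of 7 genes of chromosome structure, 2 fell and the median difference was -0.36. Top2a, the topoisomerase that untangles sister DNA, was at 8.03, 8.10, 8.21, 8.43 and 7.97 with pegtarazimod, against 8.66, 8.58, 8.70, 8.53 and 8.78 with vehicle. The groups did not overlap, and the lowest value was on pegtarazimod array 5 rather than on array 1 or 2. Top2a was 1.41-fold lower (-0.50 ± 0.10 SE, limma adjusted p = 0.012). Smc2, an ATPase subunit of condensin, was at 7.40, 7.61, 7.93, 8.06 and 7.97 with pegtarazimod and at 8.33, 8.31, 8.24, 8.38 and 8.34 with vehicle. The vehicle values lay close together and all pegtarazimod values lay below them. Smc2 was 1.44-fold lower (-0.53 ± 0.12 SE, adjusted p = 0.0238). Without pegtarazimod array 2 or without vehicle array 3, 4 or 5, the adjusted p of Smc2 was 0.051 to 0.0644.

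Ncaph, the subunit that closes the condensin I ring, had the largest difference of the members that did not pass, at -0.62 ± 0.19 (SE, adjusted p = 0.0793, or 0.00903 with the subset block). Its values were 6.27 and 6.56 on pegtarazimod arrays 1 and 2 and 7.29 to 7.34 on arrays 3 to 5, against 7.49 to 7.80 with vehicle, so the groups did not overlap. Mki67, whose protein coats mitotic chromosomes and is a widely used sign of dividing cells, was at 10.67, 10.84, 11.22, 11.25 and 11.13 with pegtarazimod and at 11.50, 11.31, 11.30, 11.19 and 11.33 with vehicle. Pegtarazimod arrays 3 and 4 were within the vehicle range. The difference of Mki67 was -0.30 ± 0.12 (SE, adjusted p = 0.175). The condensin genes Smc4, Ncapd2 and Ncapg had differences of -0.36, -0.36 and -0.31, and Ncapd2 passed with the subset block (adjusted p = 0.0397).

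In the chromosomal passenger complex, which corrects faulty attachments and guides cytokinesis, 0 of 4 members passed (1 at an unadjusted limma p below 0.05). Aurkb, its kinase, was at 8.08, 8.55, 9.10, 8.98 and 9.11 with pegtarazimod and at 9.06, 9.11, 9.08, 9.01 and 9.34 with vehicle. Arrays 1 and 2 of the pegtarazimod group were low, while arrays 3 to 5 were at or near the vehicle level. The difference was -0.35 ± 0.17 (SE, adjusted p = 0.291). Incenp, the scaffold of the complex, did not overlap between the groups, at 7.19 to 7.98 with pegtarazimod and 8.06 to 8.19 with vehicle. Its difference was -0.44 (adjusted p = 0.0837, or 0.0231 with the subset block). Birc5, the gene of survivin, had one of the smallest differences, -0.02 ± 0.12 (SE), and Cdca8 (borealin) one of -0.12.

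Of the 4 spindle checkpoint genes 0 passed (3 at an unadjusted limma p below 0.05), with a median of -0.42. Ttk, the kinase that starts the checkpoint signal, was at 6.46 and 6.64 on pegtarazimod arrays 1 and 2 and at 7.35 to 7.40 on arrays 3 to 5, against 7.36 to 7.87 with vehicle. Its difference was -0.52 ± 0.18 (SE, adjusted p = 0.126, or 0.00654 with the subset block). Mad2l1, Bub1 and Bub1b, whose proteins hold back the anaphase-promoting complex at unattached kinetochores, had differences of -0.41, -0.43 and -0.11, and Bub1 passed with the subset block (adjusted p = 0.0304).

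Of 7 centromere and kinetochore genes 2 fell, with a median difference of -0.37. Cenpf, a large protein of the outer kinetochore, was at 7.13, 7.06, 7.19, 7.63 and 7.34 with pegtarazimod, against 7.88, 7.82, 7.72, 7.71 and 7.77 with vehicle. The groups did not overlap and pegtarazimod array 4 came closest to vehicle. Cenpf was 1.42-fold lower (-0.51 ± 0.11 SE, limma adjusted p = 0.0169). Ndc80, the microtubule-binding subunit of the complex of that name, was at 6.55, 6.49, 6.83, 6.78 and 6.82 with pegtarazimod and at 7.11, 6.84, 7.16, 7.31 and 7.16 with vehicle. Vehicle array 2 lay just above the highest pegtarazimod array. Ndc80 was 1.34-fold lower (-0.42 ± 0.11 SE, adjusted p = 0.0396), and leaving out any of 6 arrays in turn ended this call (largest adjusted p = 0.108, without vehicle array 4).

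The other subunits of the Ndc80 complex did not pass in the fit without a block. Nuf2 had a difference of -0.55 ± 0.18 (SE, adjusted p = 0.102, or 0.0137 with the subset block), Spc25 of -0.21 (adjusted p = 0.302) and Spc24 of -0.05 ± 0.11 (SE, adjusted p = 0.857). Cenpa, the histone H3 variant of centromeres, had a difference of -0.23, and Cenpe, a kinetochore motor, one of -0.37.

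Of 9 kinesins 1 fell and 9 were below 0, with a median of -0.42. Kif15, a motor that helps keep the spindle poles apart, was at 7.35, 7.46, 8.17, 8.15 and 7.86 with pegtarazimod and at 8.35, 8.37, 8.40, 8.33 and 8.39 with vehicle. The vehicle values lay close together, and all pegtarazimod arrays were below them. Kif15 was 1.49-fold lower (-0.57 ± 0.15 SE, limma adjusted p = 0.0409). Without pegtarazimod array 2 the adjusted p was 0.106, and 8 of the 10 arrays ended the call when left out. The other kinesins had differences of -0.31 (Kif2c) to -0.46 (Kif20a). They include Kif11, the main motor of spindle pole separation (-0.40), Kif18a, which limits chromosome movement at the metaphase plate (-0.43), and Kif23, the motor of the central spindle (-0.46). With the subset block Kif20a, Kif18a, Kif23 and Kif11 passed (adjusted p = 0.0207, 0.0312, 0.0324 and 0.0432).

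Of 7 genes of spindle assembly and cytokinesis 2 fell, and the median of -0.45 lay furthest below 0 among the roles with several members. Ect2, the exchange factor that turns on RhoA at the cleavage furrow, had the largest difference of all members. It was at 8.35, 8.57, 9.36, 9.33 and 8.86 with pegtarazimod, against 9.56, 9.58, 9.96, 10.03 and 9.67 with vehicle. All pegtarazimod arrays were below all vehicle arrays. Ect2 was 1.82-fold lower (-0.87 ± 0.18 SE, limma adjusted p = 0.0159), and without vehicle array 3 its adjusted p was 0.0515.

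Prc1, which bundles microtubules of the central spindle, was at 6.50, 6.95, 7.33, 7.29 and 6.92 with pegtarazimod and at 7.52, 7.43, 7.58, 7.43 and 7.70 with vehicle. The groups did not overlap, and pegtarazimod array 1 was lowest by a wide margin. Prc1 was 1.45-fold lower (-0.54 ± 0.14 SE, adjusted p = 0.0412), and 8 of the 10 arrays ended the call when left out (largest adjusted p = 0.105, without vehicle array 3). Tpx2, which activates Aurora A on the spindle, did not overlap between the groups (6.99 to 7.99 with pegtarazimod, 8.02 to 8.17 with vehicle) and had a difference of -0.48 (adjusted p = 0.0926, or 0.0232 with the subset block). Racgap1, the partner of Ect2 at the central spindle, had a difference of -0.44 (adjusted p = 0.0724, or 0.03 with the subset block). Anln (anillin), Hmmr and Nusap1, which bind the contractile ring or spindle microtubules, had differences of -0.45, -0.29 and -0.25, and Anln passed with the subset block (adjusted p = 0.0357).

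Of 6 genes of the anaphase-promoting complex and of sister separation 1 fell, with a median of -0.21. Pttg1, the gene of securin, which blocks the protease separase until anaphase, was at 6.86, 7.39, 7.27, 7.34 and 7.12 with pegtarazimod, against 7.57, 7.84, 7.82, 7.65 and 7.76 with vehicle. The groups did not overlap, and array 2 was the highest of the pegtarazimod group. Pttg1 was 1.45-fold lower (-0.53 ± 0.11 SE, limma adjusted p = 0.0136). Espl1, the gene of separase, had a difference of -0.19 (adjusted p = 0.318).

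Fzr1, the coactivator that works with the anaphase-promoting complex at the end of mitosis and in G1, was at 8.27, 8.39, 8.55, 8.22 and 8.33 with pegtarazimod and at 8.32, 8.43, 8.39, 8.28 and 8.27 with vehicle. The groups overlapped throughout and the difference was 0.01 ± 0.09 (SE, adjusted p = 0.96), with a sign that turned when pegtarazimod array 3 (-0.04), vehicle array 4 or vehicle array 5 (both -0.00) was left out. Cdc20, the coactivator of anaphase, and Ube2c, the conjugating enzyme of the complex, had differences of -0.22 and -0.23. Cdca3, a cell division cycle associated gene, had one of -0.09 ± 0.11 (SE).

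**Figure D3:**
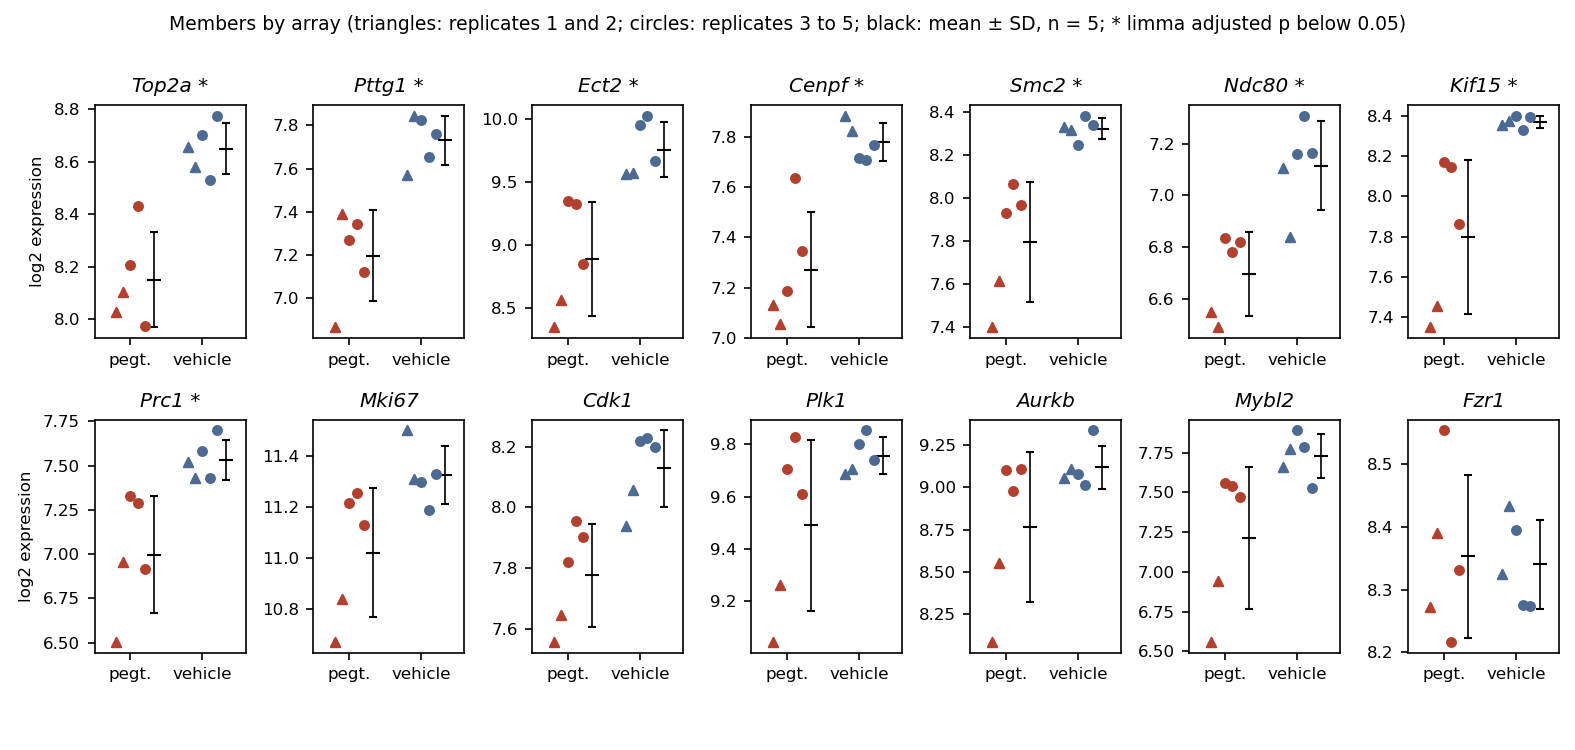
Log2 expression on each array (vertical axes, a scale per gene) of the 8 members with an adjusted p below 0.05 and of 6 members named for their role, with pegtarazimod in red at the left of each panel and vehicle in blue at the right. Triangles are replicates 1 and 2, circles replicates 3 to 5, and black marks give the mean ± SD of 5 arrays. The pair of triangles of pegtarazimod are the lowest points in every panel except those of Top2a, Pttg1, Prc1 and Fzr1.

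The number of members that passed depended on single arrays. Of the 8, Top2a, Cenpf and Pttg1 passed whichever array was left out. The count was 3 without vehicle array 3, 4 without pegtarazimod array 2 and without vehicle array 4 or 5, 5 without pegtarazimod array 1 and without vehicle array 1, and 19 without pegtarazimod array 4. With both pegtarazimod arrays 1 and 2 left out, 1 member passed, Pttg1, and the median difference was -0.17. Centring each array on its median left 5, with Kif15 at an adjusted p of 0.0502, Prc1 at 0.0532 and Ndc80 at 0.0537.

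Differences were also taken within each subset. The split was known from earlier results of the same arrays. Within replicates 1 and 2, 27 of 53 members fell (over all genes 3.37% fell) and the median difference was -0.65. This count was 7 without pegtarazimod array 1, 9 without vehicle array 1 and 13 without vehicle array 2. Within replicates 3 to 5, 1 member fell, Ect2 (over all genes 1.5%), and the median difference was -0.20. The count there was 0 without pegtarazimod array 5 or vehicle array 3 or 4, and 2 without pegtarazimod array 1, 2 or 4. The largest differences within replicates 1 and 2 were those of Ect2 (-1.11), Ncaph (-1.09), Mybl2 (-0.97) and Kif15 (-0.96), and within replicates 3 to 5 the same genes had differences of -0.70, -0.31, -0.21 and -0.31. For Top2a, Pttg1 and Ndc80 the values were closer: -0.55, -0.58 and -0.45 in replicates 1 and 2 and -0.47, -0.50 and -0.40 in replicates 3 to 5. Spc25 and Espl1 were the members whose difference was further below 0 in replicates 3 to 5 than in replicates 1 and 2, and Fzr1 had -0.05 in replicates 1 and 2 and 0.05 in replicates 3 to 5. When the difference between the subsets was itself tested in limma, 0 of 53 members passed (over all genes 0.0256% passed, in either direction). The smallest adjusted p of a member was 0.288. At an unadjusted p below 0.05 in this test, the difference, pegtarazimod minus vehicle, was lower in replicates 1 and 2 for 23 members and higher for 0. Over all 19505 genes, this difference was lower in replicates 1 and 2 for 819 and higher for 674 at that threshold. A larger response in replicates 1 and 2 was therefore not shown for any single member at this number of arrays.

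Within the pegtarazimod group, 23 of 53 members were lower in replicates 1 and 2 than in replicates 3 to 5 (over all genes 2.81%), with a median of -0.48. Within the vehicle group the same contrast gave 0 members in limma (over all genes 0.302%), with a median of -0.10. At an unadjusted p below 0.05, 2 members were lower there. The difference between these contrasts is what the test between the subsets above measures, and 0 of 53 members passed in it.

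**Figure D4:**
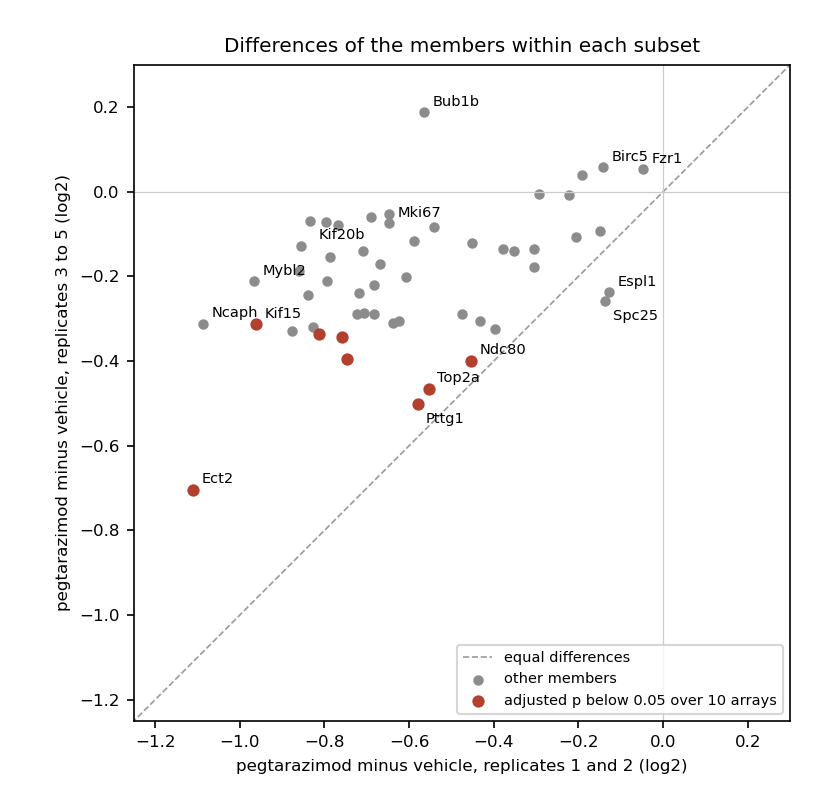
Difference in log2 expression, pegtarazimod minus vehicle, of each of the 53 members within replicates 1 and 2 (horizontal axis) and within replicates 3 to 5 (vertical axis). Red points passed at an adjusted p below 0.05 over 10 arrays, and 51 of the 53 points lie above the dashed line of equal differences, where the difference is further below 0 in replicates 1 and 2.

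Marker genes of intestinal cell types also differed between the groups, and their part in the result was not tested. Over all genes 2.39% fell and 2.5% rose. Of 9 measured stem cell markers 7 fell, and their summed level (signal on the linear scale) was 2144 and 2909 on pegtarazimod arrays 1 and 2 and 3064 to 3305 on arrays 3 to 5, against 5291 to 5909 with vehicle. Of 13 enterocyte markers 6 rose, with a sum of 25710 and 21654 on pegtarazimod arrays 1 and 2 and of 13256 to 13891 on arrays 3 to 5, against 9180 to 13169 with vehicle. Of 8 Paneth cell markers 5 fell (8 with the subset block), with sums of 1833 and 1598 on pegtarazimod arrays 1 and 2 against 4003 and 3470 on vehicle arrays 1 and 2, and of 3106 to 4080 on pegtarazimod arrays 3 to 5 against 6759 to 7639 on vehicle arrays 3 to 5. Stem cell and enterocyte sums were furthest from the vehicle range on pegtarazimod arrays 1 and 2. Paneth cell sums were lower on arrays 1 and 2 than on most others in both groups. Their mean log2 difference, pegtarazimod minus vehicle, was -1.18 in replicates 1 and 2 and -1.01 in replicates 3 to 5. In the limma test between the subsets 0 of 8 Paneth cell markers passed. Of 8 goblet cell markers 6 rose, with sums of 4182, 3402, 3854, 3826 and 4313 on pegtarazimod arrays 1 to 5, against 1889 to 2753 with vehicle. Of 7 enteroendocrine markers 2 rose and 1 fell, with sums of 3264 to 4315 with pegtarazimod and 2136 to 3190 with vehicle. Of 7 tuft cell markers 0 passed in limma (1 lower and 1 higher at an unadjusted p below 0.05), with sums of 285 to 365 with pegtarazimod and 263 to 321 with vehicle. All 10 epithelial markers lay above the median of every array, and 1 of them rose and 0 fell. The sums of endothelial markers were 56.5 to 67.9 with pegtarazimod and 59.5 to 71.9 with vehicle, and those of leukocyte markers 242 to 346 with pegtarazimod and 264 to 431 with vehicle. The sums of fibroblast and muscle markers were 304 to 365 with pegtarazimod and 275 to 337 with vehicle. Of 9 measured fibroblast and muscle markers 1 rose and 0 fell. Of 8 leukocyte markers 0 passed in limma (1 lower and 1 higher at an unadjusted p below 0.05), and of 5 endothelial markers 0 passed (1 lower unadjusted). The subset block, chosen from earlier results of the same arrays, also changed counts other than that of Paneth cell markers. With it 8 stem cell markers, 1 tuft cell marker and 1 leukocyte marker fell, and 9 enterocyte markers rose. Of the enteroendocrine markers 3 rose and 1 fell with the block, and of the epithelial markers 2 rose and 1 fell. No marker was at 0, since arrays give no true zero.

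Other genes of the cell cycle were taken from lists that share 0 genes with the members. Counts in these lists stand against 2.39% of all genes that fell and 2.5% that rose. At an unadjusted limma p below 0.05 the shares of all genes were 9.65% lower and 9.31% higher. Among these 9 lists DNA replication had the most genes that passed: 13 of 35 measured genes fell, 0 rose and the median difference was -0.45. Mcm4 and Mcm3, subunits of the replicative helicase, had differences of -0.83 ± 0.18 and -0.74 ± 0.16 (SE, limma adjusted p = 0.0173 and 0.0179). Fen1, the nuclease that trims Okazaki fragments, had one of -0.54 ± 0.12 (adjusted p = 0.0163) with similar values of -0.53 in replicates 1 and 2 and -0.55 in replicates 3 to 5. Of 7 G1 cyclins and kinases 2 fell, Cdk6 (-0.74, adjusted p = 0.0232), a kinase of early G1, and Cdk2 (-0.50, adjusted p = 0.049), the kinase of the start of S phase. Ccnd1 was not analysed here.

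Among 32 other spindle and cytokinesis genes 3 fell, with a median of -0.34. They were Melk (-0.68, limma adjusted p = 0.0115), a kinase of dividing cells, Cit (-0.57, adjusted p = 0.0302), the citron kinase of the midbody, and Haus6 (-0.54, adjusted p = 0.0412), a subunit of augmin, which seeds microtubules within the spindle. Among 36 other kinetochore and centromere genes 0 passed (21 lower and 0 higher at an unadjusted limma p below 0.05), with a median of -0.31. The medians were nearer 0 for cohesin and other condensin genes (-0.12, 0 of 17 passed, 5 unadjusted) and for the anaphase-promoting complex list (-0.14, 0 of 16 passed, 3 unadjusted). That list holds Ube2s and Fbxo5 besides subunits of the complex. Of 14 regulators of mitotic entry 1 fell, Cks1b (-0.39, adjusted p = 0.0499), a small subunit of Cdk complexes, and the median was -0.09.

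Of 19 MuvB, DREAM and E2F genes 3 fell, 0 rose and the median was -0.19, with a range of -0.52 to 0.64. At an unadjusted limma p below 0.05, 8 were lower and 3 higher, and with the subset block 4 fell and 1 rose. Rbl1, the gene of p107, fell by 0.52 on the log2 scale (limma adjusted p = 0.0239), Rbbp4, the chromatin subunit of MuvB, by 0.46 (adjusted p = 0.024) and E2f7, a repressor of E2F targets, by 0.42 (adjusted p = 0.0385). Lin54, the subunit that binds the CHR, had a difference of -0.11 ± 0.10 (SE, adjusted p = 0.61). E2f8, the other atypical E2F repressor, had one of -0.33 ± 0.14 (SE, adjusted p = 0.216). Of 17 inhibitors and genes of cell cycle exit 1 fell, Btg2 (-0.35, adjusted p = 0.029), an antiproliferative gene, and 0 rose (1 at an unadjusted p below 0.05). Cdkn1a, the gene of the Cdk inhibitor p21, had a difference of -0.06 ± 0.17 (SE, adjusted p = 0.896). Of the genes of these lists named as fallen, Melk passed whichever array was left out, Mcm4 lost its call without 1 array, and the rest without 2 (Fen1 and Mcm3) to 9 (Cks1b) arrays, each left out in turn.

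**Figure D5:**
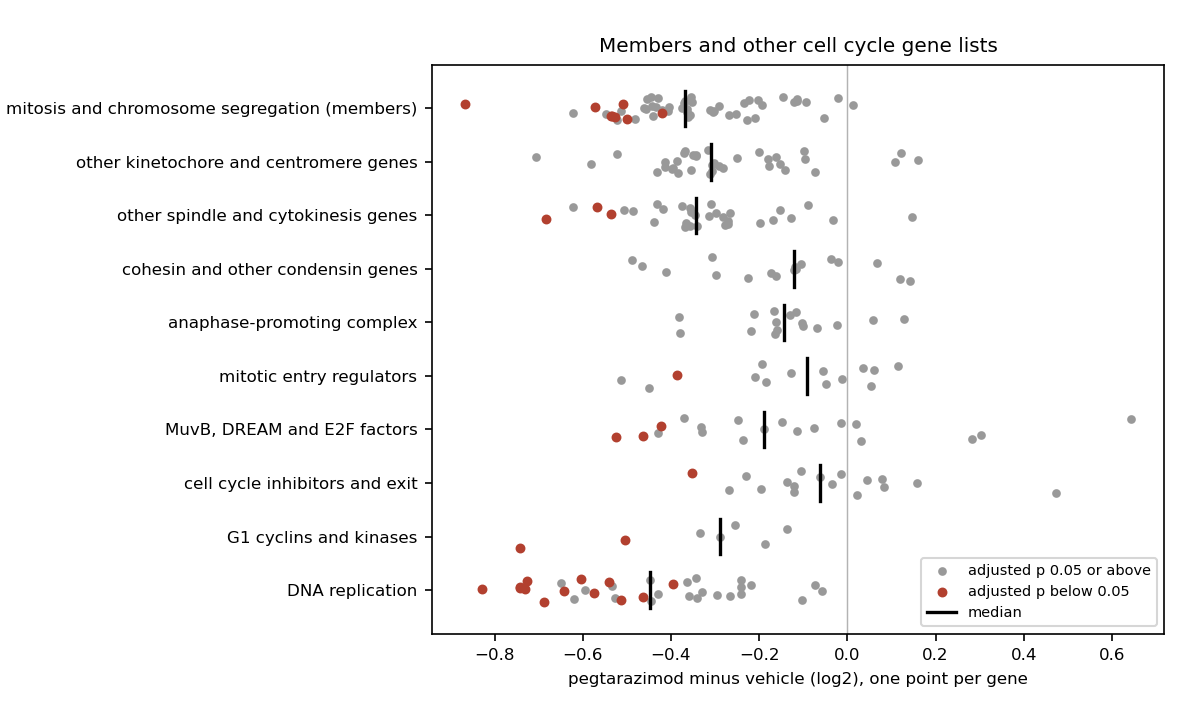
Difference in log2 expression, pegtarazimod minus vehicle (horizontal axis), of each gene in the members and in 9 other cell cycle lists (rows). Red points passed at an adjusted p below 0.05 and black bars are medians, which lie between -0.45 for DNA replication and -0.06 for inhibitors and exit.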

How the data were processed

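RNA from 10 organoid cultures was measured on 10 arrays, and groups and replicate numbers came from the sample labels. The deposited unit is log2 per probe set, from oligo and RMA per the submitters' processing notes. RMA includes quantile normalisation between arrays and would hide a shift shared by most genes. For the versions, annotation and build, the sources used here give nothing. Of 22203 probe sets, 19572 had 1 gene symbol, 0 had several and 2631 were unnamed and left out. For 55 of the 19505 genes the probe set with the highest mean was used. No filter on low values was applied, and the number of arrays limits the precision.

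Differences, pegtarazimod minus vehicle, were estimated with R 4.3.3 and limma 3.58.1, using lmFit and eBayes without covariates, with Benjamini-Hochberg adjustment over 19505 genes and a threshold of 0.05. Fits within the replicate subsets used a 4-group model with a common estimate of spread. The fit was run on simulated independent genes with equal spread in both groups and no replicate subsets. That run cannot show how the fit behaves where genes vary together or spreads differ, as on these arrays. Python 3.11.15 with matplotlib 3.10.9 drew the figures.

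The members, lists, tests and the rule for named genes were chosen with earlier results of these data known. The rule took every member that passed, 8 genes fixed by role, the 4 largest and 4 smallest differences of the other members, up to 3 called genes of each list, and Cdkn1a, Ccnd1, Lin54 and E2f8, besides the 10 other genes most like the member mean. Members named outside this rule complete the account of their role and were named after their values were seen. Alternatives are given in the closing section.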

Additional observations from a re-analysis of the deposited data

Results flagged for a closer look

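In 74 groups of 5 arrays examined, 4 had an array whose gap to its nearest neighbour, as a share of the group's range, was above Dixon's critical value of 0.71. Chance alone flags about 1 in 20 groups. Ncaph was at 7.80 on vehicle array 5, above 7.49 to 7.57 on the other vehicle arrays. Spc24 was at 6.24 on vehicle array 1, below 6.46 to 6.53 on the others. Rbbp4 was at 8.88 on pegtarazimod array 1, below 9.32 to 9.46 on the other pegtarazimod arrays. Fen1 was at 7.32 on pegtarazimod array 1, below 7.68 to 7.78 on the others.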

How the results depend on the processing

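The 954 genes past the threshold were 1606 with the replicate block, 1820 with the subset block, 437 to 1245 leaving out each array, and 342 without pegtarazimod arrays 1 and 2, an alternative chosen after seeing the data. The 8 members that fell were 5 after median centring, 13 without the dimmest 50% of genes, 19 with the replicate block, 25 with the subset block, 3 to 19 leaving out each array and 1 without pegtarazimod arrays 1 and 2. Replicate numbers were not taken as pairs, since the labels name nothing shared and 1 of the 5 correlations between same-numbered arrays was below 0.1 (range 0.0993 to 0.310). That 4 of 5 pegtarazimod arrays correlated best with their own number is a hint of pairing from the data, so the block may apply. Within replicates 1 and 2, the 27 members were 7 to 28 leaving out each array. Within replicates 3 to 5, the 1 member was 4 with an intensity trend, 2 without the dimmest 25%, 6 without the dimmest 50% and 0 to 2 leaving out each array. The test between the subsets called 1 member with an intensity trend. The median difference of -0.37 was -0.45 to -0.25 leaving out each array, and no alternative run gave a member that rose. A CHR was in 36.7% of member promoters in the 200 bases upstream, and a CCAAT box in 44.9% within 50 bases of the start. Signs turned only for small differences. Leaving out each array, Fzr1 was -0.037 to 0.047, Birc5 -0.081 to 0.095, Spc24 -0.124 to 0.0025, Cdca3 -0.139 to 0.0076 and Cdkn1a -0.203 to 0.045. Without pegtarazimod arrays 1 and 2, Birc5 was 0.10, Spc24 0.091 and Lin54 0.0042. Birc5 was 0.014 with array weights and 0.0056 after median centring. The cause was not tested in these cases.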

Other observations

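Likeness to the members was measured as the Pearson correlation of each gene with the mean of the 53 members (of the other 52 for a member) over 10 arrays with the group means removed, as a description of arrays that share their preparation and normalisation. The median was 0.86 over the members and 0.02 over all other genes, whose 95th percentile was 0.81. The 10 other genes most like the member mean were Rrm1 (a subunit of ribonucleotide reductase), Wdr43, Prim1 (a primase subunit), H2bc8 (a histone H2B gene), Urb2, Smarcc1, Abce1, Tubb5 (a tubulin), Atad2 and Usp1, at 0.979 to 0.994. Their limma adjusted p between the groups was 0.0529 to 0.877. The means of replicates 1 and 2 and of replicates 3 to 5 were then removed as well. The median over the members was then 0.69, with a range of -0.55 to 0.98. Over other genes the median was 0.02 and the 95th percentile 0.72, which is above the member median. The 10 genes, picked before this step on the same arrays, were at 0.869 to 0.978.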
